A study of Rattus norvegicus with 4 samples.

Results

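Genes of the interleukin-6 (IL-6) signalling route and of the acute-phase response were examined in the ipsilateral cortex of rats with an experimental stroke, comparing estradiol-treated with placebo-treated animals. The members are 9 genes, Il6r, Il6st, Stat3, Socs3, Socs2, Cebpb, Cebpd, A2m and Cp, and every non-control probe set that the platform annotation assigns to 1 of them alone. That gave 20 probe sets, of 8740 on the array. The array, array A of the Affymetrix rat U34 set, measures 4736 genes through probe sets with 1 symbol. The members were defined by function, and they were chosen with earlier results of these data known.

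The estradiol group consisted of ovariectomised female rats with 17beta-estradiol replacement, and the placebo group of ovariectomised female rats given placebo. All animals, placebo included, had the middle cerebral artery closed for 2 h from inside the vessel and then reopened. Each group had 2 arrays, each carrying an independent pool of RNA from 3 animals, and the pools are called estradiol 1, estradiol 2, placebo 1 and placebo 2. The design text describes collection at 6 and 24 h, and the titles of these 4 arrays carry the codes E6IC and P6IC, which no label explains, so no time is assigned here. No dose of estradiol, strain or age is stated, and ovary-intact or unoperated animals were not analysed here. In pooled tissue, fewer cells of a type and less RNA per cell cannot be told apart.

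IL-6 and its relatives bind a ligand-specific receptor chain, such as the IL-6 receptor encoded by Il6r, and signal through the shared chain gp130, encoded by Il6st. Janus kinases on gp130 then phosphorylate the transcription factor STAT3, which enters the nucleus and switches on target genes. Among these targets are Socs3, whose protein shuts gp130 signalling down, and Cebpb and Cebpd, transcription factors that act with STAT3 on acute-phase genes. In rat liver, alpha-2-macroglobulin, encoded by A2m, is a classical acute-phase protein driven by this route. In injured brain the route is known for its part in the reaction of astrocytes.

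No probe set of the 9 genes passed the test for a difference between estradiol and placebo. Intensities were compared as log2(intensity + 16) with limma over the 5244 probe sets bright enough to be tested, 14 of which were members. With limma and Benjamini-Hochberg adjustment, 0 of the 14 passed, each with an adjusted p of 0.998, and 0% of all tested probe sets passed. At an unadjusted p below 0.05 in limma, 1 member probe set had a higher value with estradiol, an A2m probe set, against 1.74% of all tested. That probe set was bright enough to be tested only through its estradiol values. Both estradiol pools lay above both placebo pools for 3 of the 14, where 15.4% of all tested probe sets did, and below both for 3, where 14.3% did. The median log2 fold change was 0.05 over the 14 and 0.01 over all tested probe sets. Over the 14 it was 0.31 without placebo 1 and -0.18 without placebo 2. For a single probe set, 2 pools against 2 cannot give a two-sided exact permutation p below 0.333.

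**Figure D1:**
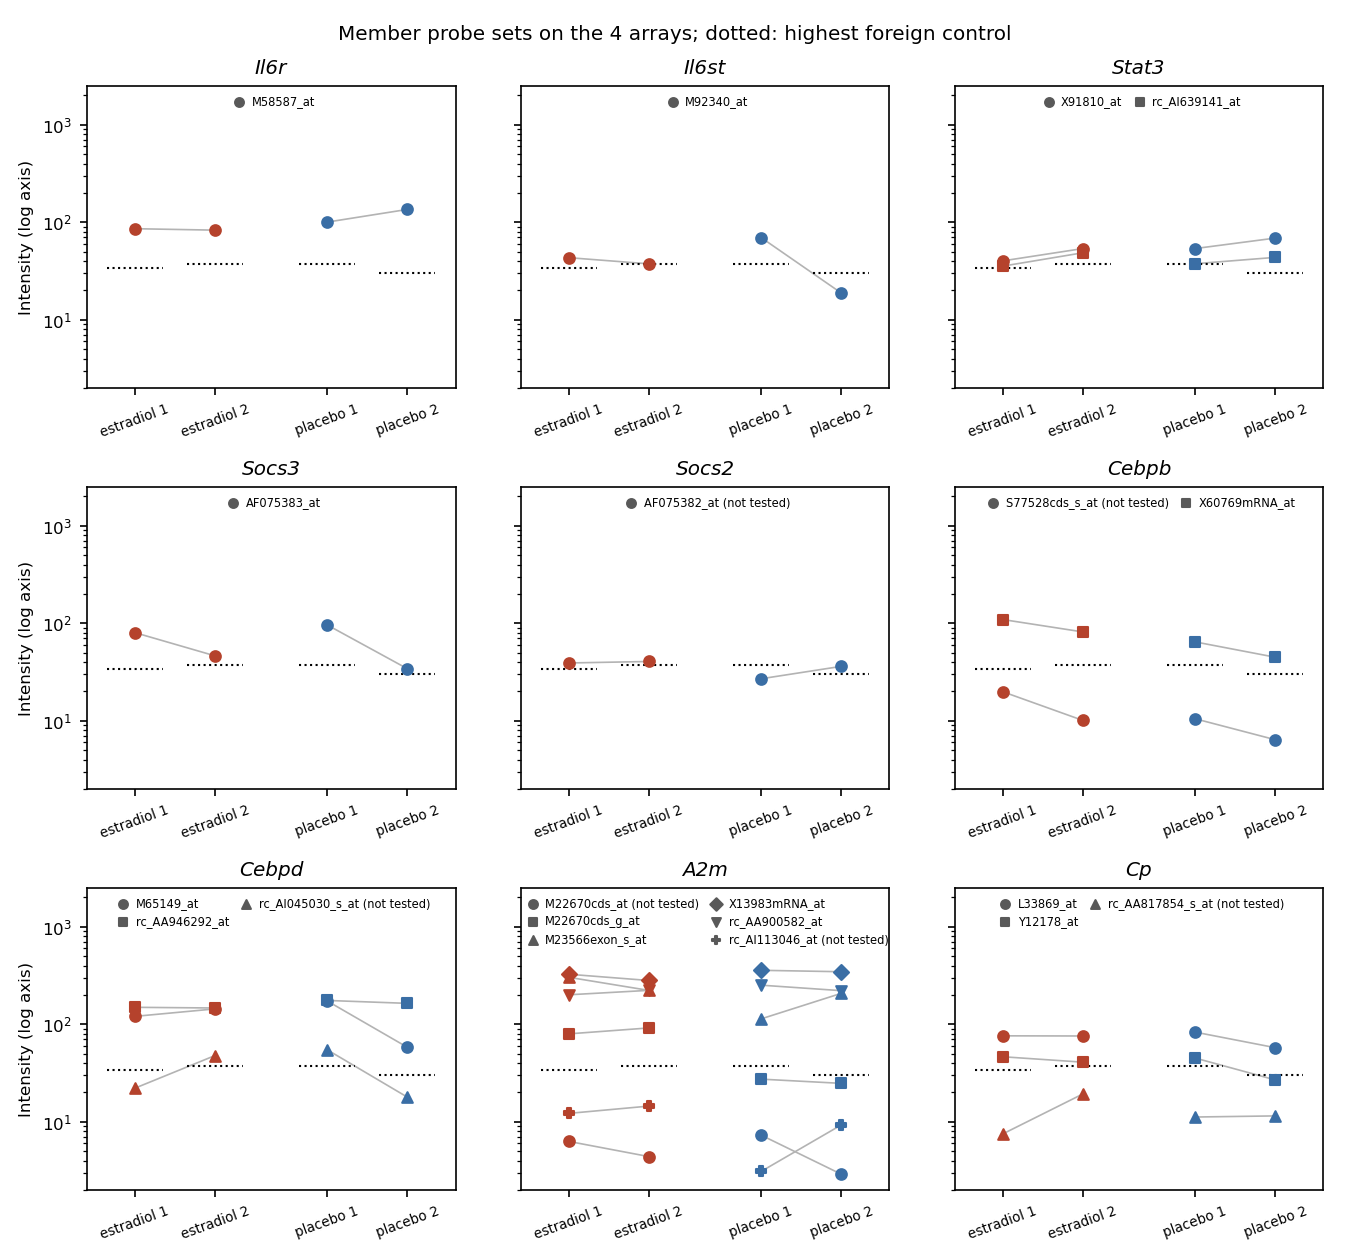
Intensity (log axis) of the 20 member probe sets in each pool, with 1 panel per gene, estradiol pools in red and placebo pools in blue, 1 symbol shape per probe set, and lines joining the pools of a group. Dotted lines mark the brightest foreign control of each array; the A2m panel spans the widest range, and the probe set M22670cds_g_at lies above the dotted line with estradiol and below it with placebo.

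The pools themselves differed in tissue and cell markers, and these values stand beside all results that follow. Choroid plexus and meninges markers, 9 of 9 on the array, summed to intensities of 2283 and 6703 in estradiol 1 and 2, against 11849 and 1281 in placebo 1 and 2. Without Ttr, the transthyretin gene and the brightest of them, the sums were 2118 and 2391 with estradiol, against 3815 and 1206 with placebo. Of these 9 markers, 8 were brighter in placebo 1 than in placebo 2, and Slc22a6 was at background on every array. Striatum markers, 7 of 8 on the array, summed to 2404 and 2082 with estradiol, against 1591 and 1535 with placebo, with Drd2 at background throughout. Astrocyte markers, 8 of 9 on the array, summed to 11273 and 11030 with estradiol, against 12345 and 11474 with placebo, and none was at background on all arrays. Microglia and macrophage markers, 8 of 10 on the array, summed to 862 and 977 with estradiol, against 1185 and 895 with placebo, with Itgam and Csf1r at background throughout. Cortical markers, 4 of 5 on the array and Egr3 of them at background, summed to 2511 and 2772 with estradiol, against 3077 and 3702 with placebo. Without Cck, a neuropeptide gene of cortex, those sums overlapped, at 1232 and 1432 with estradiol, against 1222 and 1696 with placebo. Neuron markers, 7 of 10 on the array, summed to 6291 and 6854 with estradiol, against 5541 and 7961 with placebo, and 0 of the 7 were brighter in placebo 1 than in placebo 2. Oligodendrocyte markers, 5 of 6 on the array, summed to 16351 and 12394 with estradiol, against 20388 and 13094 with placebo, and all 5 were brighter in pool 1 of both groups. Blood markers, 5 of 7 on the array, summed to 1872 and 4249 with estradiol, against 6173 and 5319 with placebo. Vascular markers, 8 of 10 on the array with Vwf at background, summed to 662.5 and 638.7 with estradiol, against 947.3 and 787.1 with placebo. Neutrophil markers, 3 of 6 on the array, summed to 318.1 and 201.7 with estradiol, against 296.1 and 199.3 with placebo. The part of these mixtures in the results below was not tested.

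Of the receptor genes, Il6r, the chain that binds IL-6, had the lowest log2 fold change of all tested member probe sets. Its single probe set, M58587_at, stood at 86.0 and 83.1 in estradiol 1 and 2, against 100.5 and 135.6 in placebo 1 and 2. The estradiol pools lay close together and below both placebo pools. The log2 fold change was -0.40 ± 0.25 (SE, limma), with an adjusted p of 0.998, and it was -0.21 without placebo 2.

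Il6st, which encodes the signal-transducing chain gp130, stood at 43.4 and 37.5 in the estradiol pools, against 69.7 and 18.8 in the placebo pools (probe set M92340_at). The estradiol values lay between the placebo values, and 2 of the 4 arrays, estradiol 2 and placebo 2, did not exceed the brightest foreign control of their array. Its log2 fold change was 0.05 ± 0.48 (SE), and either placebo pool decided the sign, with 0.70 without placebo 1, -0.60 without placebo 2 and -0.03 without estradiol 1.

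Stat3 was measured by 2 probe sets of modest brightness. X91810_at stood at 40.2 and 53.8 with estradiol, against 53.8 and 68.9 with placebo, so that the groups met at the same value. Its log2 fold change was -0.30 ± 0.31 (SE), and -0.14 without estradiol 1 and -0.16 without placebo 2. The other probe set, rc_AI639141_at, stood at 35.5 and 48.7 with estradiol, against 37.6 and 43.7 with placebo, with the placebo values inside the range of the estradiol values. It gave 0.03 ± 0.34, but -0.14 without estradiol 2, -0.05 without placebo 1 and -0.0037 after median centring. These values describe the transcript alone, since STAT3 acts through phosphorylation, which arrays do not measure.

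Socs3, the feedback inhibitor that binds gp130, showed larger gaps between pools than between groups. Its probe set AF075383_at stood at 80.3 and 46.4 in estradiol 1 and 2, against 96.2 and 34.2 in placebo 1 and 2. Both groups held a bright and a dim pool, and the estradiol values lay inside the placebo range. The log2 fold change was 0.05 ± 0.44 (SE), with 0.63 without placebo 1, -0.53 without placebo 2, 0.36 without estradiol 2 and -0.27 without estradiol 1.

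Socs2, a relative of Socs3 known for restraining growth hormone signalling through STAT5, stood at 39.2 and 40.6 with estradiol, against 27.0 and 36.2 with placebo (AF075382_at). Both estradiol values were higher, by little, and its mean fell just below the brightness needed for testing. In the fit without the brightness filter its log2 fold change was 0.24 ± 0.31 (SE, limma).

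Of the C/EBP transcription factor genes, Cebpb had higher values in both estradiol pools. Its tested probe set X60769mRNA_at stood at 109.4 and 81.6 with estradiol, against 64.5 and 44.9 with placebo. All 4 values were above background, and the groups did not overlap. The means were 95.5 ± 19.7 with estradiol and 54.7 ± 13.9 with placebo (SD, n = 2 each), with a log2 fold change of 0.66 ± 0.29 (SE) and an adjusted p of 0.998 in limma. The value lay between 0.46 and 0.86 with 1 array left out, and it was 0.43 with an offset of 64. The second probe set, S77528cds_s_at, did not exceed background on any array, at 19.9 and 10.1 with estradiol, against 10.5 and 6.4 with placebo, and was not tested.

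Promoter sequence from RefSeq (GRCr8) was at hand for 6 members, Il6st, Cp, Il6r, Cebpb, Stat3 and Socs3, as the 250 bases before the annotated gene start. Those of Cebpb and Il6r are shown because these are the members with a window whose tested probe set separated the estradiol from the placebo pools, Cebpb upward and Il6r downward. The Cebpb window lies at chr3:176816755-176817004 on the plus strand, and the Il6r window at chr2:177645210-177645459 on the minus strand. Capitals mark TGACG or its complement CGTCA, the core of the cAMP response element, and TATAAA or TTTATA, the TATA box.
Cebpb: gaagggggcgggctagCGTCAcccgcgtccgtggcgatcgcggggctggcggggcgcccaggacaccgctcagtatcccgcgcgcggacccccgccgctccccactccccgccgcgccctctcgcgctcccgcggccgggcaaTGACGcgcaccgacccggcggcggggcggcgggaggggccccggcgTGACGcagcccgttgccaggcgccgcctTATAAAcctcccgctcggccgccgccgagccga
Il6r: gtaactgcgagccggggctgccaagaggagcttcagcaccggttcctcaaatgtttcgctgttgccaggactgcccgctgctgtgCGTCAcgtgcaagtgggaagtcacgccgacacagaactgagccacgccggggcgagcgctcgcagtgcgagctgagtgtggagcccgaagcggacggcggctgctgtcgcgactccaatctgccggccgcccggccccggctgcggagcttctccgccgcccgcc
The Cebpb window is 80.0% G and C and holds that core at 234, 107 and 61 bases before the start and a TATA box at 33 bases before it. The Il6r window is 68.8% G and C and holds 1 such core, at 165 bases. Searched on both strands, the core was in 18.2% and the TATA box in 12.9% of all 33469 such rat windows. The STAT motif TTCNNNGAA was in 0 of the 6 member windows and in 7.67% of all. The estrogen response element, with arms GGTCA and TGACC spaced by 3 bases, was in 0 of the 6 and in 0.0239% of all. The C/EBP motif TTGCNNAA or TTNNGCAA was in 1 of the 6, that of Cp, and in 9.22% of all. A match describes letters only, and sites outside these windows were not searched.

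Cebpd, whose product acts with C/EBP beta in acute-phase transcription, had 3 probe sets that did not give 1 direction. M65149_at stood at 120.6 and 143.9 in the estradiol pools, against 173.5 and 58.1 in the placebo pools, so that the placebo pools enclosed both estradiol values. It gave a log2 fold change of 0.32 ± 0.42 (SE), with 0.996 without placebo 1 and -0.36 without placebo 2. The brightest of the 3, rc_AA946292_at, stood at 149.4 and 147.0 with estradiol, against 175.7 and 164.0 with placebo. There both estradiol values were lower, by a log2 fold change of -0.18 ± 0.21. The dim rc_AI045030_s_at, not tested, stood at 22.1 and 47.8 with estradiol, against 54.8 and 17.9 with placebo, with the bright and dim pools in the same order as in M65149_at.

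A2m, the protease inhibitor alpha-2-macroglobulin, held both the widest range of levels and the largest log2 fold change, in different probe sets. M22670cds_g_at stood at 79.8 and 91.8 with estradiol, against 27.4 and 24.8 with placebo. Both placebo values lay within background, the groups did not overlap, and estradiol exceeded placebo at least 2.54-fold. The fitted log2 fold change was 1.27 ± 0.31 (SE), with an unadjusted p of 0.00360 and an adjusted p of 0.998 in limma. With an offset of 64 it was 0.73. The placebo mean, 26.1, was below the brightness needed for testing, 37.5. This probe set was thus tested only through its estradiol values, mean 85.8, and the p is given as description only. M22670cds_at, which carries the same stem in its name, was at background on every array, between 2.9 and 7.3.

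M23566exon_s_at gave the second largest value for A2m. It stood at 303.7 and 222.6 with estradiol, against 113.7 and 207.9 with placebo. The groups did not overlap, but estradiol 2 and placebo 2 lay close together. The means were 263 ± 57.3 with estradiol and 161 ± 66.6 with placebo (SD, n = 2 each). The log2 fold change of 0.70 ± 0.31 (SE) was 0.30 without placebo 1 and 1.09 without placebo 2. The other bright probe sets of the gene had lower means with estradiol. X13983mRNA_at stood at 326.2 and 281.4 with estradiol, against 358.0 and 346.1 with placebo, without overlap, a log2 fold change of -0.21 ± 0.21 (-0.10 without estradiol 2). rc_AA900582_at stood at 200.8 and 223.0 with estradiol, against 252.0 and 221.3 with placebo, with overlap, a log2 fold change of -0.15 ± 0.21 (-0.06 without placebo 1). The last, rc_AI113046_at, was at background throughout, at 12.2 and 14.5 with estradiol, against 3.1 and 9.3 with placebo. Of the 4 tested A2m probe sets, 2 were therefore above 0 and 2 below. The rat genome holds close relatives of A2m, the murinoglobulins, and which transcripts each probe set reads was not tested. The probe set of Mug1, one such relative, was at background on all arrays, between 2.2 and 5.1.

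Cp encodes ceruloplasmin, a copper-binding ferroxidase that liver secretes in the acute phase and astrocytes carry on their surface. Its brightest probe set, L33869_at, stood at 76.2 and 75.9 in the estradiol pools, against 83.2 and 57.6 in the placebo pools. The placebo values enclosed the estradiol values, and the log2 fold change was 0.11 ± 0.28 (SE), or -0.11 without placebo 2 and 0.32 without placebo 1. Y12178_at stood at 46.5 and 40.9 with estradiol, against 45.1 and 26.9 with placebo. It gave 0.22 ± 0.36, or -0.04 without placebo 2 and 0.48 without placebo 1. Its value in placebo 2 was below the background of that array, 30.1. The placebo mean, 36.0, was below the brightness needed for testing, so Y12178_at was tested only through its estradiol values, mean 43.7. rc_AA817854_s_at was at background throughout, between 7.5 and 19.3, and was not tested.

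**Figure D2:**
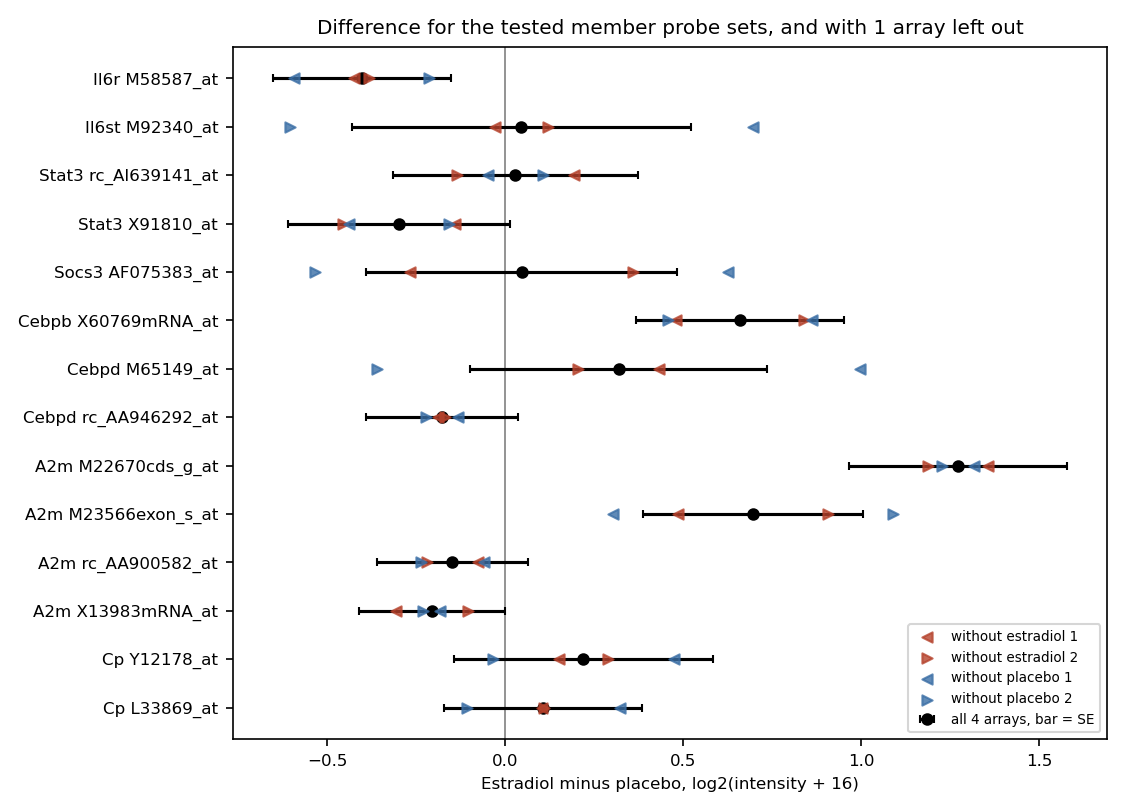
Difference between estradiol and placebo in log2(intensity + 16) for the 14 tested member probe sets; black points with SE bars use all 4 arrays, and coloured triangles leave out 1 estradiol array (red) or 1 placebo array (blue). The A2m probe set M22670cds_g_at lies between 1.19 and 1.36 with 1 array left out. It was at background in both placebo pools and was tested only through its estradiol values, and its value depends on the offset. Il6st, Socs3 and Cebpd M65149_at lie on both sides of 0.

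For several members the placebo pools differed from each other more than the treatments did. This pattern was noticed after the values were seen. Placebo 1 exceeded placebo 2 by 1 or more on the log2(intensity + 16) scale for 3 of the 14 tested member probe sets, where 3.07% of all tested probe sets did so. The differences were 1.35 for Cebpd M65149_at, 1.30 for Il6st and 1.16 for Socs3. Il6st in placebo 2, at 18.8, was below the background of that array, 30.1, and with values raised to background its difference was 0.89. The count was then 2 of 14, against 2.52% of all tested probe sets. Between the estradiol pools, the same probe sets differed by -0.23, 0.15 and 0.63, estradiol 1 minus estradiol 2. Placebo 1 was the brightest of the 4 arrays for 7 of the 14, against 23% of all tested probe sets, and placebo 2 the dimmest for 7, against 22.8%. Of the markers given above, 8 of 9 for choroid plexus and meninges and 5 of 5 for oligodendrocytes were also brighter in placebo 1 than in placebo 2. So were 3 of 3 for neutrophils, 6 of 8 for astrocytes, 6 of 8 vascular, 5 of 8 for microglia and macrophages and 3 of 5 for blood. The counts were 0 of 7 for neurons, 1 of 4 for cortex and 2 of 7 for striatum. The part of these mixtures in the difference between the placebo pools was not tested.

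**Figure D3:**
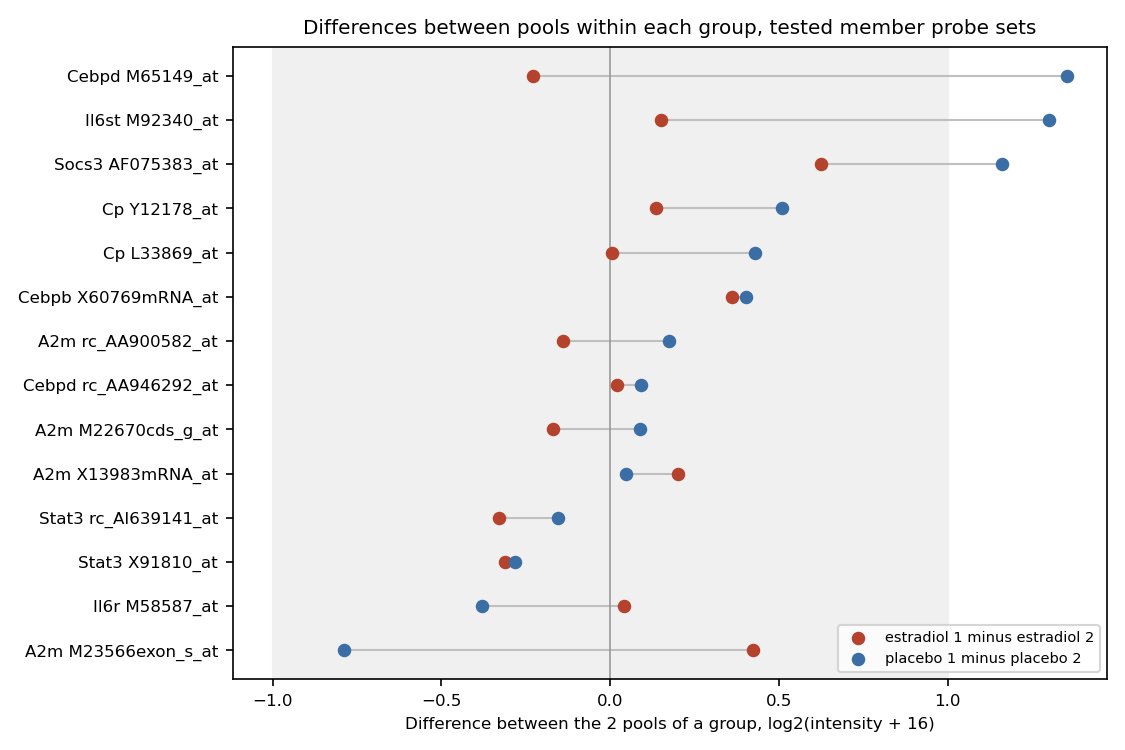
Difference between the 2 pools of a group in log2(intensity + 16), pool 1 minus pool 2, for the 14 tested member probe sets, with estradiol in red and placebo in blue; the grey band spans differences smaller than 1. The placebo points of Cebpd M65149_at, Il6st (at background in placebo 2) and Socs3 lie to the right of the band, and no estradiol point leaves it.

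Other ligands and receptors of the IL-6 family were few on the array. Of 12 listed genes, 6 had a probe set, and 4 probe sets were tested, with 0 passing in either direction in limma, a median log2 fold change of -0.10, 2 above 0 and 2 below. Over all tested probe sets, 51.6% were above 0, which stands beside this list and those that follow. Cntfr, the receptor chain for ciliary neurotrophic factor, stood at 164.8 and 157.1 with estradiol, against 121.9 and 121.0 with placebo. Its pools of each group were close together and did not overlap, and the log2 fold change was 0.36 ± 0.22 (SE), between 0.33 and 0.40 with any array left out. Lif, the leukemia inhibitory factor gene, had -0.41 ± 0.32 and stood at 60.2 and 87.1 with estradiol, against 132.7 and 77.4 with placebo, so its value came mostly from placebo 1 (-0.08 without it). Ctf1, the cardiotrophin gene, had -0.30 (-0.04 without estradiol 1) and Cntf 0.10. The placebo mean of Cntf, 35.9, was below the brightness needed for testing, so it was tested only through its estradiol values. Il6 itself, named here after its values were seen, was too dim to be tested. Its probe set M26744_at stood at 30.0 and 9.0 with estradiol, both within background, and at 51.9 and 32.4 with placebo. With both estradiol values raised to background, the placebo mean on the log2 scale lay 1.15-fold above them. That rested on placebo 1, since placebo 2, at 32.4, lay below the background of both estradiol arrays, 33.9 and 37.8. No smallest fold is therefore given. The other Il6 probe set was at background on all arrays.

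Janus kinases, other STATs and their regulators showed no common direction. Of 21 listed genes, 17 had a probe set and 8 genes were tested with 13 probe sets, 6 above 0 and 7 below, with a median of -0.02 and 0 passing in limma. Stat6, the STAT of IL-4 signalling, had the highest value, 0.51 ± 0.37 (SE), at 56.6 and 51.2 with estradiol, against 46.1 and 22.5 with placebo, or 0.17 without placebo 2. The placebo 2 value of Stat6 was at background. Its placebo mean, 34.3, was below the brightness needed for testing, so it was tested only through its estradiol values, mean 53.9. Jak2, a kinase bound to gp130, stood at 57.4 and 63.2 with estradiol, against 39.1 and 39.3 with placebo in its probe set AJ000557cds_s_at. Those groups did not overlap and gave 0.47 ± 0.31, whereas its other tested probe set overlapped and gave 0.15. The lowest value was -0.28, for a probe set of Ptpn1, a tyrosine phosphatase gene (-0.57 without estradiol 1 and 0.01 without estradiol 2). Other tested probe sets of Ptpn1 gave 0.24, 0.22, -0.02 and -0.04. Next lowest was -0.19 for Ptpn11, the gene of the phosphatase SHP2 (-0.69 without estradiol 1 and 0.31 without estradiol 2).

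Of 32 listed acute-phase genes other than the members, 24 had a probe set and 14 were tested with 18 probe sets, 13 above 0 and 5 below, with a median log2 fold change of 0.16. Over all tested probe sets, 51.6% were above 0. None of the 18 passed in limma in either direction, and their median was -0.15 without placebo 2. The highest values belonged to probe sets of Timp1, the metalloprotease inhibitor gene, and Ttr, and both rested on the spread between pools. Timp1 rc_AI169327_g_at stood at 92.6 and 237.0 with estradiol, against 273.3 and 10.5 with placebo, and limma gave a log2 fold change of 0.92 ± 0.96 (SE), and -0.80 without placebo 2. Ttr rc_AA945169_g_at gave 0.70 ± 2.30 (4.37 without placebo 1 and -2.98 without placebo 2). Serpina1, the alpha-1-antitrypsin gene, had the lowest, -0.48 ± 0.25 (-0.30 without estradiol 2), at 103.5 and 77.2 with estradiol, against 124.5 and 138.0 with placebo. Ahsg, the fetuin-A gene, was next lowest in its tested probe set D10261_g_at, at 38.4 and 26.2 with estradiol, against 48.5 and 40.3 with placebo, or -0.33 ± 0.36 (-0.15 without estradiol 2). In both probe sets, the estradiol pools lay below the placebo pools. For Ahsg D10261_g_at, estradiol 2 was at background, and the estradiol mean, 32.3, was below the brightness needed for testing. That probe set was thus tested only through its placebo values, mean 44.4. The other Ahsg probe sets, too dim to be tested, lay the other way without overlap: X63446_at stood at 47.7 and 42.3 with estradiol, against 24.5 and 34.5 with placebo, and D10261_at was at background on every array.

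Genes reported to respond to STAT3 in injured tissue were also split. Of 18 listed genes, 16 had a probe set and 12 were tested with 25 probe sets, 14 above 0 and 11 below, with a median of 0.08 that was -0.26 without placebo 2. At an unadjusted p below 0.05 in limma there was 1 probe set of the 25 in each direction. Over all 5244 tested, 91 were higher and 70 lower. The 2 were Nos2 U16359cds_at with 1.26 ± 0.40 (SE) and Ccnd1 X75207_s_at with -1.31 ± 0.37, and 0 passed after adjustment. Both estradiol values of Ccnd1 X75207_s_at, 22.6 and 12.7, were within background, against 66.6 and 66.4 with placebo. The level was therefore at least 1.86-fold lower with estradiol, and the fitted value depends on the offset. That probe set was bright enough to be tested only through its placebo values. Nos2 U16359cds_at stood at 193.4 and 132.8 with estradiol, against 33.2 and 94.5 with placebo, of which placebo 1 was at background. Other tested probe sets of these genes gave -0.08 for Nos2 and -0.15, -0.11 and -0.0047 for Ccnd1. The value of Nos2 U16359cds_at was 0.68 without placebo 1. Junb X54686cds_at had 0.67 ± 0.42, at 594.5 and 298.6 with estradiol, against 389.7 and 171.5 with placebo, and 0.11 without placebo 2 or 0.19 without estradiol 1. Ccl2, a chemokine gene, had -0.34 ± 0.40 in X17053cds_s_at, at 96.3 and 106.2 with estradiol, against 215.9 and 78.7 with placebo, and 0.31 without placebo 1. Placebo 1 exceeded placebo 2 by 1 or more for 9 of these 25 probe sets and for 6 of the 18 acute-phase probe sets. The share of all tested probe sets was 3.07%. With values raised to background the counts were 9 and 5, against 2.52% of all tested. The 9 belonged to Hspb1, Hmox1, Ccl2 and Junb alone, and the 6 to Timp1, Ttr, Kng2 and Spp1 alone. Several probe sets of the same gene were thus counted, and Ttr is also a choroid plexus marker.

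**Figure D4:**
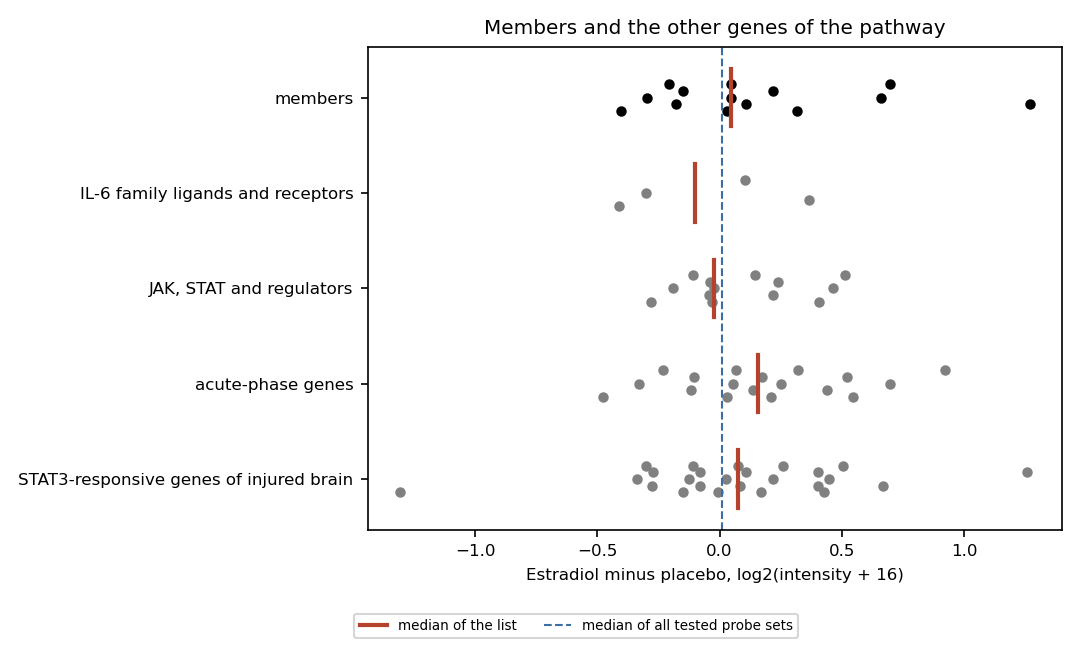
Difference between estradiol and placebo in log2(intensity + 16) for each tested probe set of the members (black) and of the 4 lists of other pathway genes (grey); red bars are list medians and the blue dashed line is the median of all tested probe sets. The medians run from -0.10 for ligands and receptors to 0.16 for acute-phase genes, and each list spreads on both sides of 0.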

How the data were processed

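Array A of the Affymetrix rat U34 set was hybridised with RNA of 4 cortical pools. The authors deposited 1 linear intensity per probe set and array, scaled to a common level (means trimmed by 2% between 150.18 and 150.20). A scaling factor is named per the series design text; the sources used here do not name the program. Array medians lay within 0.0558 on the log2 scale, so values were used as deposited. Of 8799 rows, 59 controls were left out. Intensities were tested as log2(value + 16), which understates changes of dim probe sets, for probe sets with a mean at or above the 40th percentile (37.5). Tests used limma 3.58.1 in R 4.3.3 (lmFit, eBayes with trend, two-sided, Benjamini-Hochberg over 5244 probe sets, threshold 0.05), checked on simulated data. Depth does not apply to arrays; 2 arrays per group limit the precision. A value not above the brightest of 23 foreign control probe sets of its array (30.1 to 37.8) is called background; a bound sets the brighter group's mean log2 intensity against the dimmer group's arrays raised to that level.

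Groups follow the sample titles. All 9 members' gene identifiers were found in the RefSeq table (GRCr8), and no coordinates are given beyond those of the Cebpb and Il6r promoter windows. Members and lists were chosen with earlier results of these data known. All member probe sets are named, and from each list the 2 highest and 2 lowest tested log2 fold changes; others named were chosen after their values were seen. Replicate numbers in the codes do not pair the pools by any label, and the pool differences of the groups correlated with r = 0.0363 over the tested probe sets, which are not independent replicates. Offsets of 1 and 64, no filter, the 60th percentile, quantile normalization, median centring, no trend, a replicate block and leaving out each array were tried. Raising values to background in the difference between the placebo pools was added after the data were seen.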

Additional observations from a re-analysis of the deposited data

How the results depend on the processing

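No probe set passed under any of the 12 alternatives in limma, with 0 called higher and 0 lower among all tested and 0 among the members. With 2 pools per group, leaving out 1 array leaves a lone pool that is assumed to vary like the others. The members' median log2 fold change lay between -0.18 (without placebo 2) and 0.31 (without placebo 1) with 1 array left out, and was -0.16 over the 6 probe sets above the 60th percentile. The range with 1 array left out was -0.21 to 0.01 for ligands and receptors, -0.040 to 0.17 for Janus kinases and STATs, -0.15 to 0.42 for acute-phase genes and -0.26 to 0.31 for STAT3-responsive genes. Of the 14 member probe sets, 6 changed sign when an array was omitted. Their ranges were -0.60 to 0.70 for Il6st, -0.14 to 0.19 for Stat3 rc_AI639141_at, -0.53 to 0.63 for Socs3, -0.36 to 0.996 for Cebpd M65149_at, -0.11 to 0.32 for Cp L33869_at and -0.035 to 0.48 for Cp Y12178_at. Il6st was also -0.011 with an offset of 64, and Stat3 rc_AI639141_at was -0.0037 after median centring. With the replicate number as a replicate block, 0 probe sets were called and the members' median stayed 0.05. Neither could show stability, since the main fit held no call to change and a balanced block leaves the fold changes as they were. Background limits Socs2, Il6st, Stat3 and the dim probe sets of A2m, Cebpb, Cebpd and Cp.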

Other observations

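Some genes near the members had the same order of pool numbers in both groups, which belongs to no comparison above. No label pairs the pools by number, so a shared order is described only. Junb, an AP-1 gene that responds to STAT3 among other factors, stood at 720.3 and 246.4 in estradiol 1 and 2, against 533.3 and 158.6 in placebo 1 and 2 (rc_AA891041_at). Hspb1, a small heat shock protein gene of reactive glia, stood at 2381 and 1014 in the estradiol pools, against 2718 and 795.9 in the placebo pools (rc_AI176658_s_at). Kng2, a kininogen gene, stood at 71.0 and 12.2 with estradiol, against 69.7 and 17.6 with placebo, with pool 2 of each group at background. Socs3 followed the same order, whereas Stat2 stood at 79.7 and 108.2 with estradiol, against 41.8 and 101.1 with placebo, with the second pool brighter in both groups. Timp1 rc_AI169327_at, at 413.9 and 627.8 with estradiol, against 791.4 and 240.3 with placebo, had the order of Ttr. That order was opposite in the estradiol and placebo groups. These genes were chosen after their values were seen.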
